A study of Mus musculus with 42 samples.

Results

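Mature B cell genes are genes that B lymphocytes of the spleen use for their antigen receptor, its signalling, their other surface receptors and the transcription factors that keep their identity. A list of 35 such genes was followed, and a gene's value was the mean of the array features whose annotation gives that gene symbol alone. Features existed for 33 of the 35 genes, 50 features in all, among 15277 genes measured in the series. Fcrl5 and Cd38 had no such feature and have no value here. The 33 genes are called the members below. In untreated spleens every member had a mean log2 ratio of spleen over the reference RNA above 0, from 0.20 to 5.64 with a median of 2.29. Those levels do not check the list's label, because the direction of the ratio was itself taken from spleen genes being high and the reference RNA includes B lymphocytes.

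The samples were spleens of female BALB/c mice, labelled WT, whose age is not given in the sources used here. Untreated mice (6 arrays) carry no treatment label. Treated mice were injected intraperitoneally with 400 µg of an oligodeoxynucleotide (ODN) mixture, either CpG ODN 1555 and 1466, with spleens taken after 3, 9, 24 or 72 h or after 5, 7, 9 or 14 days, or the control ODN 1612 and 1471, taken at 3 h (4 arrays for each of these 9 groups). The treatment text of some samples gives the number of the first CpG ODN with a digit missing, and it was read as 1555. Unmethylated CpG DNA is the ligand of Toll-like receptor 9, an endosomal receptor that mouse B cells and plasmacytoid dendritic cells carry, so B cells are among the cells that respond to it directly. The control mixture was given at 3 h alone, so the 8 CpG times were set against untreated spleens and CpG at 3 h also against control ODN. Each array set Cy5-labelled spleen cDNA against a Cy3-labelled universal mouse reference RNA, whose source cells include B lymphocytes per the labels. The series' design text calls the replicates of a time point biological and independent. Whether an array holds 1 mouse or a pool is not given in the sources used here.

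As background, the B cell receptor is a surface immunoglobulin held by the signalling pair Cd79a and Cd79b. Its signal passes through the kinases Blk and Btk, the adaptor Blnk and the phospholipase Plcg2, is raised by the complement receptor Cr2 and is damped by inhibitory receptors such as Cd22, Cd72 and Siglecg. Pax5 holds the B cell programme in place, Spib and the Pou2f2 and Pou2af1 pair drive genes of the mature B cell, Bcl6 serves the germinal centre, and Bach2 restrains the change to plasma cells.

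Because Spi-B, which binds an ETS motif, and the Pou2f2 and Pou2af1 pair, which binds the octamer motif, are themselves encoded by members, 2 motifs were searched on both strands in the 250 bases before the start of each RefSeq gene (GRCm38.p6). A promoter was found for 29 members, 37 promoters in all. The ETS motif GAGGAAGT stood in 4 of the 37 member promoters (of Btla, Cd37, Cd72 and Fcrl1) and in 2.44% of all 32851 promoters. The octamer ATGCAAAT stood in 1 of the 37 member promoters, of Blnk, and in 1.6% of all promoters. A match is a description of letters and not a site of binding. Of the 4 genes with the ETS motif, Cd72 and Fcrl1 fell at 5 and 7 days. Btla and Cd37 passed the threshold given below at none of the 8 CpG times against untreated. Whether the motif goes with a direction of change was not tested. The promoters of Cd72 (chr4:43454627-43454876, minus strand) and Fcrl1 (chr3:87376137-87376386, plus strand) are shown because both genes fell at 5 and 7 days, that of Blnk (chr19:40994222-40994471, minus strand) for the octamer, and that of Pik3ap1 (chr19:41385103-41385352, minus strand), which holds neither motif, because this gene rose. Capitals mark the motif, which in all 3 cases runs on the other strand (ACTTCCTC and ATTTGCAT as printed). It begins 49 bases before the start in Cd72, 15 in Fcrl1 and 130 in Blnk.
Cd72: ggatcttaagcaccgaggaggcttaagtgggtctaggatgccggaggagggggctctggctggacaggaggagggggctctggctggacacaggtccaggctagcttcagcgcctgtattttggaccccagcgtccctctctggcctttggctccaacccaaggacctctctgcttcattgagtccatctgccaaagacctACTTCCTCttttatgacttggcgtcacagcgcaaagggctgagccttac
Fcrl1: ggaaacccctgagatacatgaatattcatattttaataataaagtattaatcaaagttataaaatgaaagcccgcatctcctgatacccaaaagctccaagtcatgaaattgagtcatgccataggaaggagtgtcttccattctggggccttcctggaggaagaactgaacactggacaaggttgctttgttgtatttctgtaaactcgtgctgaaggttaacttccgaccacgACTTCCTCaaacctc
Blnk: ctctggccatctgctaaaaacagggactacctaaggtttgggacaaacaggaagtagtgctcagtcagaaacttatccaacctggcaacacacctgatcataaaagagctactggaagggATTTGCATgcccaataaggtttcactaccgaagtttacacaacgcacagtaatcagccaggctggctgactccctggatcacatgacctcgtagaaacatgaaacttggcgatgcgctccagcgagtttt
Pik3ap1: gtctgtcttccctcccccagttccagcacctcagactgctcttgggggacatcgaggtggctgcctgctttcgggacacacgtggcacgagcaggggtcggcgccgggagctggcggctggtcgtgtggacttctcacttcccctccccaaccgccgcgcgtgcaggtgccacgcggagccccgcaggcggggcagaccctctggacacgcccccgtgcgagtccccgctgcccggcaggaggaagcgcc

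Differences are given on the log2 scale, where 1 is a 2-fold change, with the standard error of a limma fit of all 42 arrays, and a gene was called at a Benjamini-Hochberg adjusted p below 0.05 over all genes tested in the comparison (2-sided). The arrays are centred, and the median of all genes moved by at most 0.06 in any comparison below with untreated or control ODN. The 42 arrays fall into 10 runs of neighbouring database numbers, given in the sample titles, and 5 of the 6 untreated arrays are alone in their run. What a run stands for is not given, so groups in different runs cannot be told apart from those runs except where a comparison lies within a run. In whole spleen, fewer B cells and less RNA per B cell cannot be told apart.

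Set against untreated spleens, the members formed a trough at 5 and 7 days. Against untreated, 15 of 33 members fell at 5 days (13.4% of all genes tested were called lower) and 13 of 33 at 7 days (6.89% of all genes). The median difference of the members was -0.57 at 5 days and -0.55 at 7 days, beside 0.01 and -0.02 over all genes. At 5 days 29 members and at 7 days 33 members had a mean below that of untreated spleens. Of the 15 genes that fell at 5 days and the 13 that fell at 7 days, 10 were shared, which is 66.7% of the first list and 76.9% of the second. Directly against 72 h, 0 members were called lower at 5 days (2.18% of all genes) and 1 higher, Bcl11a (1.24%). At 7 days 0 were called against 72 h (3.66% of all genes). The median member difference from 72 h was -0.26 at both times, and no member was called as falling further from 72 h.

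Before 5 days fewer members were called, though most means lay below untreated at 3 h (21 of 33), 9 h (24) and 72 h (26), and 17 did at 24 h. Members called lower made up 15.2% of the list at 9 h and 21.2% at 72 h. At 3 h 3 members fell (3.93% of all genes) and 3 rose (7.7% of all genes). At 9 h 5 fell (3.45%) and 1 rose (5.07%), and 3 were called in all without CpG 9 h replicate 2. At 24 h 1 fell (2.87%) and 1 rose (8.03%), and the total was 1 without untreated replicates 1 or 2 or CpG 24 h replicate 2, 0 without CpG 24 h replicate 3 and 5 without CpG 24 h replicate 4. At 72 h 7 members fell (6.01% of all genes) and 0 rose (8.94%), and all 7 were also among the 15 that fell at 5 days. Of the members, 1 rose at 5 days (17.5% of all genes) and 0 at 7 days (8.68%). At 9 days 3 members fell (5.12%) and 0 rose (8.4%). At 14 days limma called 0 members lower (1.77% of all genes) and 0 higher (2.77%). There 6 of 33 members had an unadjusted p under 0.05, beside 3110 of all 15003 genes tested, a similar share. At this time 2 members were called with array weights or with the replicate number as a block, 1 with arrays scaled to the same spread or without untreated replicate 6, and 3 without CpG 14 days replicate 1. The median member difference was -0.17, -0.16, -0.03 and -0.29 at 3, 9, 24 and 72 h, -0.20 at 9 days and 0.13 at 14 days. Quantile normalization between arrays raised the counts to 13 at 3 h, 15 at 72 h and 14 at 9 days, and array weights also raised them. Those 3 counts therefore depend on the scaling and the weighting. The shares over all genes under these settings are not given here, so a rise of the members cannot be told apart from a general rise in calls.

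**Figure D1:**
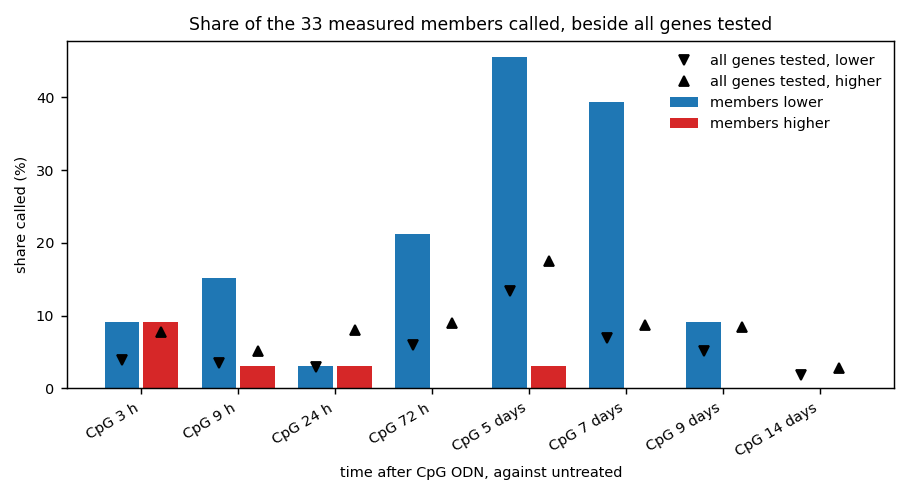
Bars give the share of the 33 measured members called lower (blue) or higher (red) against untreated at each of the 8 CpG times (percent, limma adjusted p below 0.05), and triangles give the same shares over all genes tested. The share of members called lower reached 45.5% at 5 days and 39.4% at 7 days, beside 13.4% and 6.89% of all genes.

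Over the 8 times together, limma's F test called 27 of 33 members, where 63.5% of all genes tested were called. Cd79a, Cd22, Fcmr, Blk, Pou2f2 and Dtx1 were not called by it. Among single times, 18 members fell at 1 or more, 5 rose at 1 or more (Pik3ap1, Bach2, Swap70, Blnk and Bcl11a), Swap70 and Blnk did both, and 12 were called at none. The lowest mean came at 5 days for 16 members, at 7 days for 10, at 72 h for 2 and at another time for 5.

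**Figure D2:**
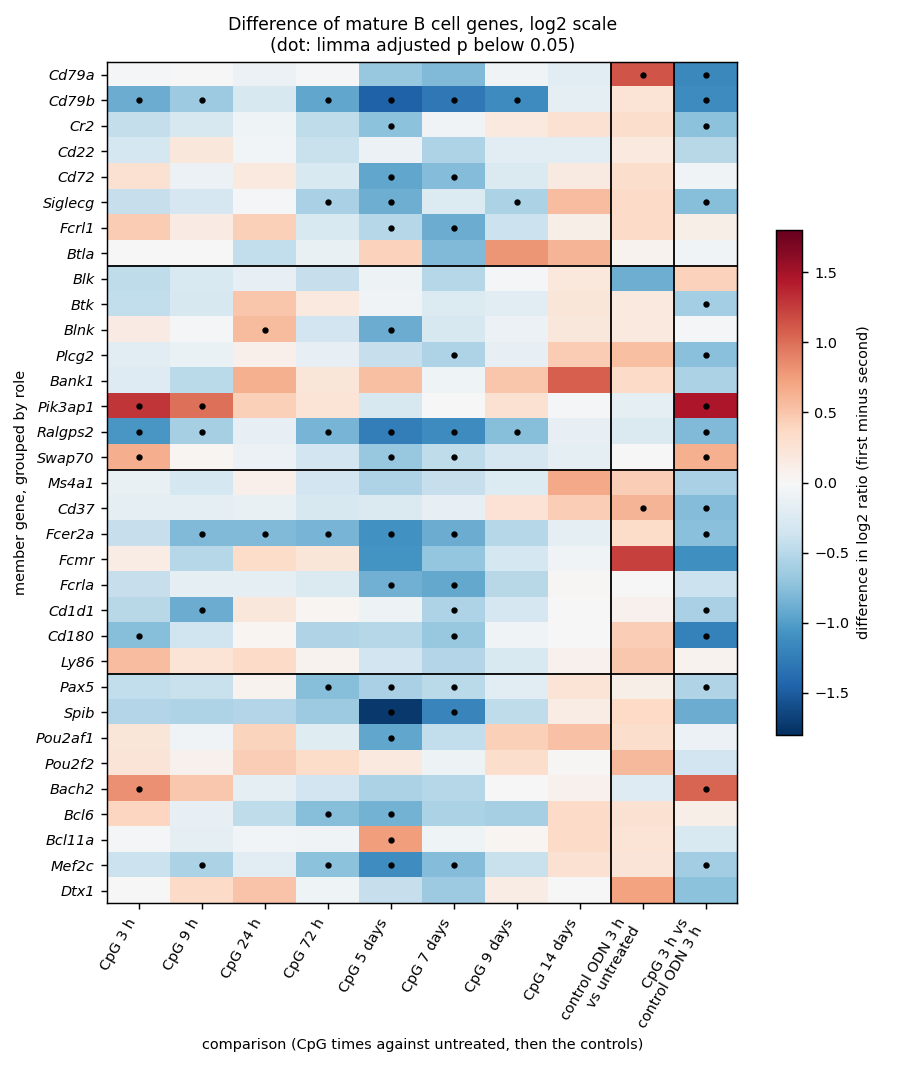
Each row is a member, grouped by role, and each column a comparison: the 8 CpG times against untreated, control ODN at 3 h against untreated, and CpG against control ODN at 3 h. Colour is the difference in log2 ratio and a dot marks limma adjusted p below 0.05. Dots on blue cells are most numerous at 5 days (15), at 7 days and in CpG against control ODN (13 each) and at 72 h (7), and the dots on red cells at 3 h are Pik3ap1, Bach2 and Swap70.

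The 2 signalling chains of the receptor differed in how they were called. Cd79b fell at 6 of the 8 times. Its untreated arrays ran from 3.50 to 3.86 (median 3.74), the 3 h arrays read 2.77, 2.30, 3.00 and 3.18, and the 5 day arrays 2.20, 2.19, 2.29 and 2.31. All 4 arrays lay below every untreated array at both times. The differences from untreated were -0.90 ± 0.15 at 3 h (adjusted p = 1.78e-05), -0.65 ± 0.15 at 9 h (0.00255), -0.94 ± 0.15 at 72 h (2.97e-05), -1.46 ± 0.15 at 5 days (6.26e-09), -1.28 ± 0.15 at 7 days (5.19e-07) and -1.13 ± 0.15 at 9 days (1.55e-06). At 24 h the difference was -0.29 ± 0.15 (0.22). By 14 days the arrays read 3.53, 3.60, 3.41 and 3.63, with a difference of -0.17 ± 0.15 (0.558). Both of its features were below untreated at all 6 of these times. Cd79a was called at none of the 8 times. Its values ran from 4.94 to 6.36 untreated, and from 4.61 to 5.11 at 7 days, where the difference was -0.80 ± 0.31 (limma adjusted p = 0.0727). The untreated arrays of Cd79a spread more (SD 0.55, n = 6) than those of Cd79b (SD 0.12, n = 6), and whether the chains differ from each other was not tested.

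**Figure D3:**
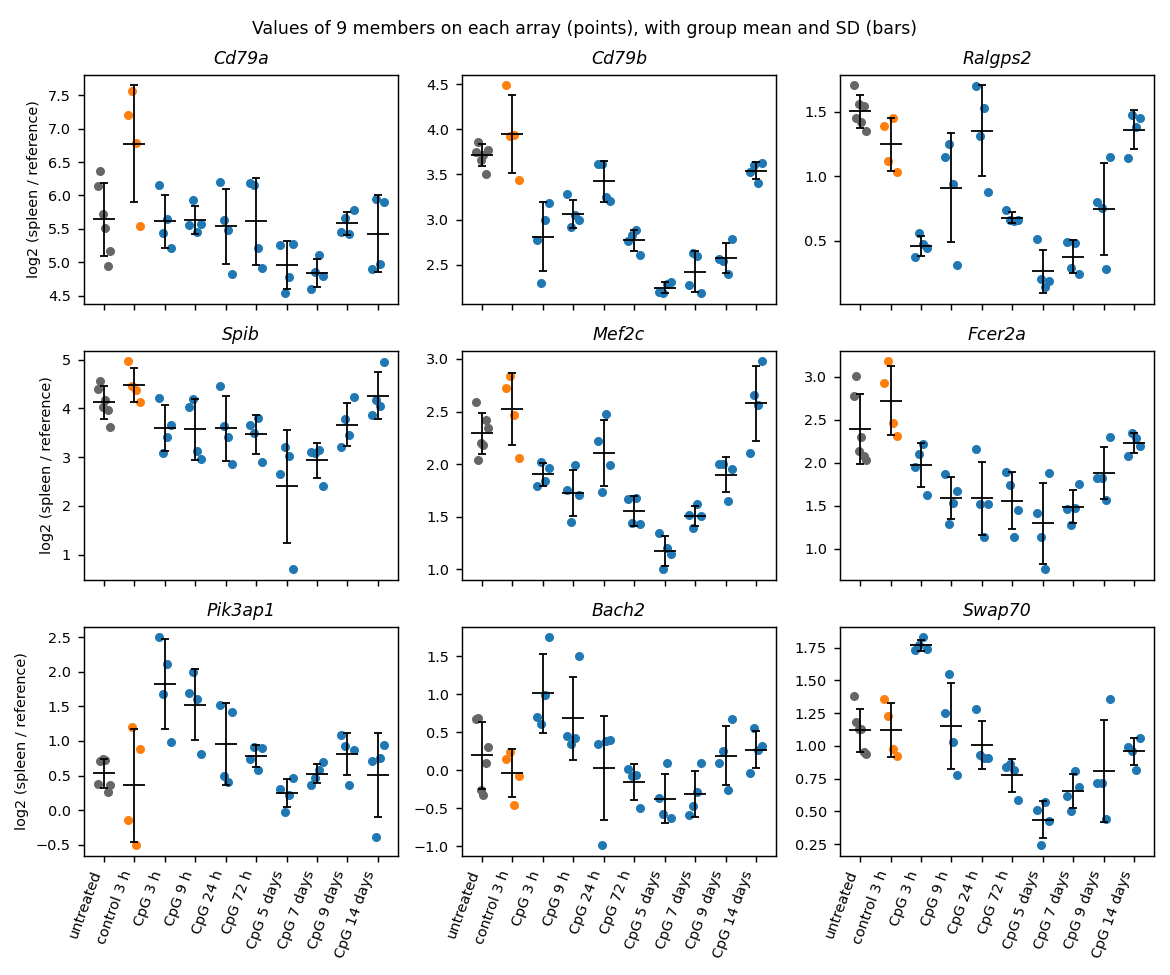
Points are single arrays, black dashes and bars the group mean and SD, for 9 members in untreated (grey, 6 arrays), control ODN (orange, 4) and the 8 CpG groups (blue, 4 each), as log2 ratio of spleen over reference. Cd79b, Ralgps2 and Mef2c have their lowest group at 5 days with no array reaching the untreated range, while Pik3ap1 is highest at 3 h.

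Among co-receptors, the complement receptor gene Cr2, which lowers the threshold of B cell activation, fell at 5 days alone among the 8 times (-0.74 ± 0.18, limma adjusted p = 0.00153). Its 5 day arrays read 3.49, 3.71, 3.89 and 3.67, below all untreated arrays (3.91 to 4.77). The 2 Cr2 features did not move alike, with -0.30 and -1.17 at 5 days, and on the feature with fewest missing values the difference was -0.31 (adjusted p = 0.213). The inhibitory receptor gene Cd72 fell at 5 days (-0.93 ± 0.20, adjusted p = 0.000412; arrays 1.15, 1.28, 1.86 and 1.95 against 2.28 to 2.73 untreated) and at 7 days (-0.78 ± 0.20, 0.00471; arrays 1.45, 1.86, 1.90 and 1.61). At both times no array reached the untreated range.

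Siglecg, an inhibitory receptor of B cells that binds sialic acid, fell at 72 h (-0.58 ± 0.18, limma adjusted p = 0.0236), 5 days (-0.88 ± 0.18, 0.000238) and 9 days (-0.57 ± 0.18, 0.0277). Its arrays read 0.99, 0.72, 0.58 and 0.83 at 72 h and 0.09, 0.62, 0.49 and 0.72 at 5 days, all below the untreated range of 1.02 to 1.69. The 9 day arrays (1.02, 0.88, 0.29 and 0.99) reached its lower end. The 72 h call was lost without untreated replicate 6, CpG 72 h replicate 2 or CpG 72 h replicate 3 (differences -0.65 to -0.51 over all single omissions, adjusted p at most 0.0968), and the 9 day call without untreated replicates 4 or 6 or CpG 9 days replicate 3 (-0.64 to -0.40, at most 0.178). The Fc receptor-like gene Fcrl1 fell at 7 days (-0.89 ± 0.19, 0.00116), when its arrays read 2.38, 2.45, 2.14 and 1.87 against 2.71 to 3.47 untreated. At 5 days it fell by less (-0.52 ± 0.19, 0.0357), and that call was lost without untreated replicates 1 or 2 or CpG 5 days replicates 3 or 4 (-0.64 to -0.33, at most 0.221). Cd22 and Btla, also inhibitory receptors, were called at none of the 8 times, with differences from -0.55 to 0.21 and from -0.79 to 0.80.

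The signalling members moved in both directions. Ralgps2, an exchange factor for the small GTPase Ral, fell at 6 of the 8 times, as Cd79b did. Its untreated arrays ran from 1.35 to 1.71 (median 1.5), its 3 h arrays read 0.37, 0.56, 0.47 and 0.44, and its 5 day arrays 0.51, 0.20, 0.14 and 0.19. No array of either time came near the untreated range. The differences were -1.05 ± 0.15 at 3 h (limma adjusted p = 1.84e-06), -0.60 ± 0.15 at 9 h (0.00782), -0.83 ± 0.15 at 72 h (0.000301), -1.25 ± 0.15 at 5 days (2.3e-07), -1.13 ± 0.15 at 7 days (6.23e-06) and -0.76 ± 0.15 at 9 days (0.000763). All 3 of its features fell at each of these times. The 9 h value became -0.40 without CpG 9 h replicate 4 (adjusted p = 0.0938).

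Pik3ap1, the adaptor BCAP that links the receptors of B cells to phosphoinositide 3-kinase, rose early. Untreated arrays ran from 0.27 to 0.74, the 3 h arrays read 2.50, 1.68, 2.12 and 0.98, and the 9 h arrays 1.69, 2.00, 1.61 and 0.81, all above the untreated range. The differences were 1.29 ± 0.28 at 3 h (limma adjusted p = 0.00114) and 0.99 ± 0.28 at 9 h (0.0197), and they were the highest called member differences at these times. At 24 h the arrays split, with 1.52 and 1.42 above and 0.49 and 0.41 inside the untreated range, and the difference was 0.43 ± 0.28 (0.361). The 9 h call was lost without CpG 9 h replicates 1, 2 or 3 (0.84 to 1.23, at most 0.101).

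Swap70, which acts on Rac and the cytoskeleton of activated B cells, rose at 3 h and later fell. Its 3 h arrays read 1.73, 1.77, 1.83 and 1.74 against 0.94 to 1.38 untreated, a difference of 0.65 ± 0.14 (limma adjusted p = 0.000674). Its 5 day arrays read 0.51, 0.24, 0.57 and 0.43, a difference of -0.68 ± 0.14 (0.000268), and its 7 day arrays 0.62, 0.50, 0.81 and 0.69, a difference of -0.46 ± 0.14 (0.0183). The untreated range was left upward at 3 h and downward at 5 and 7 days. The 7 day value became -0.41 without CpG 7 days replicate 2 (0.0729), and 1 of its 3 features was at 0.11 there. Blnk, the adaptor that joins Syk to Plcg2, rose at 24 h (0.57 ± 0.17, 0.021; arrays 1.85, 2.25, 2.16 and 1.52 against 0.86 to 1.70) and fell at 5 days (-0.90 ± 0.17, 9.51e-05; arrays 0.38, 0.24, 0.76 and 0.49). Its 24 h call was lost without untreated replicates 1 or 2 or CpG 24 h replicates 2 or 3 (0.47 to 0.71, at most 0.108). Plcg2 fell at 7 days alone (-0.56 ± 0.20, 0.0465; arrays 1.38, 1.81, 1.56 and 1.35 against 1.83 to 2.42). That call was lost in 7 of 10 single omissions (untreated replicates 3, 4, 5 and 6 and CpG 7 days replicates 1, 3 and 4; -0.65 to -0.49, at most 0.137). Blk (-0.51 to 0.19), Btk (-0.44 to 0.50) and the scaffold gene Bank1 (-0.49 to 1.07) were called at none of the 8 times. For Blk, whose 2 features had means of 3.85 and 0.83 in untreated spleens, 4 arrays lacked the first, and centring the features before averaging, an alternative chosen after seeing the data, moved its control ODN difference from -0.88 to -0.16 with no change of call.

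Of the other surface genes, the low-affinity IgE receptor gene Fcer2a (CD23), a marker of follicular B cells, fell from 9 h to 7 days. Its untreated arrays ran from 2.03 to 3.01, its 9 h arrays read 1.87, 1.29, 1.53 and 1.67, and its 5 day arrays 1.41, 1.14, 0.76 and 1.88. Both groups lay wholly below the untreated arrays. The differences were -0.80 ± 0.21 at 9 h (limma adjusted p = 0.0103), -0.80 ± 0.21 at 24 h (0.00986), -0.84 ± 0.21 at 72 h (0.00689), -1.09 ± 0.21 at 5 days (0.000152) and -0.90 ± 0.21 at 7 days (0.00269). It was the 1 member called lower at 24 h. Of these, 3 calls each rested on 1 array: -0.70 (0.0561) without CpG 9 h replicate 2, -0.65 (0.0853) without CpG 24 h replicate 3, and -0.70 (0.0509) without CpG 72 h replicate 3.

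Cd180 (RP105), a Toll-like receptor relative of B cells that pairs with the product of Ly86, fell at 3 h (-0.77 ± 0.22, limma adjusted p = 0.014), when its arrays read 2.21, 2.27, 2.27 and 2.28 against 2.63 to 3.41 untreated. It was called lower again at 7 days (-0.68 ± 0.22, 0.0286; arrays 2.07, 1.99, 2.79 and 2.53), a call lost without untreated replicates 1 or 4 or CpG 7 days replicates 1 or 2 (-0.83 to -0.56, at most 0.123). Ly86 was called at none of the 8 times, with 0.56 ± 0.22 at 3 h (0.1). Cd1d1, which presents lipids and is high on marginal zone B cells, had its lowest values at 9 h (1.36, 1.09, 1.88 and 1.72 against 2.10 to 2.57 untreated), a difference of -0.90 ± 0.18 (0.000467). At 24 h its arrays were back at 2.40, 2.95, 2.91 and 2.24. It was called lower again at 7 days (-0.56 ± 0.18, 0.027; arrays 1.78, 1.95, 2.16 and 1.53), and this second call was lost without untreated replicates 2 or 4 or CpG 7 days replicates 1 or 4 (-0.66 to -0.45, at most 0.132).

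Fcrla, an Fc receptor-like protein kept inside the B cell, fell at 5 days (-0.87 ± 0.27, limma adjusted p = 0.0129; arrays 2.98, 3.45, 3.27 and 2.46 against 3.48 to 4.62) and 7 days (-0.92 ± 0.27, 0.0155; arrays 2.90, 3.03, 3.16 and 2.86). No array of either time reached the untreated range, and without CpG 5 days replicate 4 the 5 day value was -0.67 (0.0805). Ms4a1 (CD20), a surface marker of mature B cells and a common one in sorting, was called at none of the times. Its 5 day arrays read 1.41, 1.63, 1.56 and 1.31, below the untreated range of 1.71 to 2.36, with a difference of -0.55 ± 0.23 (0.0674). At 14 days they read 2.18, 2.64, 2.93 and 3.08 (0.68 ± 0.23, 0.0768). Fcmr, the IgM Fc receptor gene, was called at none of the 8 times. At 5 days 1 of its arrays read 1.29 and the others 4.85, 5.82 and 5.28 against 4.95 to 5.93 untreated, a difference of -1.07 ± 0.52 (limma adjusted p = 0.115).

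Of the transcription factor genes, Spib had the largest called difference of any member, -1.73 ± 0.34 at 5 days (limma adjusted p = 0.000202). Its untreated arrays ran from 3.62 to 4.57 and its 5 day arrays read 2.66, 3.21, 3.03 and 0.70, so 1 array stood far below the other 3. Without that array, CpG 5 days replicate 4, the difference was -1.16 (0.00426). At 7 days the arrays read 3.11, 3.08, 3.14 and 2.40 (-1.19 ± 0.34, 0.0137), and the value was -1.02 (0.071) without CpG 7 days replicate 4. Mef2c, which B cells need for proliferation after receptor signals, fell at 9 h (-0.57 ± 0.15, 0.01), 72 h (-0.74 ± 0.15, 0.000882), 5 days (-1.12 ± 0.15, 1.11e-06) and 7 days (-0.78 ± 0.15, 0.000404). Its 5 day arrays read 1.35, 1.00, 1.20 and 1.15 against 2.04 to 2.59 untreated. The groups did not overlap at any of these 4 times, and the 9 h value was -0.48 (0.0645) without CpG 9 h replicate 2. Its 3 features ran from -1.79 to -0.28 at 5 days, and 1 of them was at 0.08 at 7 days.

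Pax5, which commits cells to the B lineage, fell at 72 h (-0.76 ± 0.17, limma adjusted p = 0.00266), 5 days (-0.59 ± 0.17, 0.00765) and 7 days (-0.48 ± 0.17, 0.0491). Its 72 h arrays read 1.49, 1.30, 1.44 and 1.10, below all untreated arrays (1.69 to 2.39), while the 5 day arrays (1.46, 1.35, 1.34 and 1.85) and the 7 day arrays (1.44, 1.65, 1.94 and 1.41) reached into that range. The 7 day call was lost in 7 of 10 single omissions (untreated replicates 1, 2, 3 and 4 and CpG 7 days replicates 1, 2 and 4; -0.59 to -0.41, at most 0.158). Bcl6, the repressor that germinal centre B cells require, fell at 72 h (-0.77 ± 0.22, 0.0156; arrays -0.62, -0.08, 0.42 and -0.24 against 0.35 to 1.04) and 5 days (-0.85 ± 0.22, 0.00323; arrays 0.07, -0.59, 0.39 and -0.70). At both times 1 array reached the untreated range, and the 72 h value was -0.61 (0.0885) without CpG 72 h replicate 1. Pou2af1, the coactivator of the octamer-binding factors, fell at 5 days (-0.93 ± 0.21, 0.000698; arrays 0.00, 0.11, 0.37 and 0.96 against 0.93 to 1.53, an overlap of 1 array). Its partner Pou2f2 was called at none of the 8 times.

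Bach2 and Bcl11a were the transcription factor members that rose. Bach2 arrays read 0.70, 0.61, 0.99 and 1.75 at 3 h against -0.33 to 0.69 untreated (0.82 ± 0.26, limma adjusted p = 0.0313), and the groups overlapped at 1 array. The call was lost without untreated replicates 3, 4 or 5 or CpG 3 h replicates 3 or 4 (0.57 to 0.95, at most 0.219). Bcl11a, needed for early B cell development, rose at 5 days, when its features were 0.31, 0.67 and 0.43 above untreated. The lowest of its 3 features (mean -0.11 untreated, against 2.76 and 3.45) had no value on CpG 5 days replicate 4 and CpG 14 days replicate 2, where the plain average therefore read too high. With features centred before averaging, the alternative named for Blk above, the 5 day arrays read 2.50, 2.47, 2.61 and 2.41 against 1.88 to 2.16 untreated, with no overlap, and the difference was 0.46 ± 0.12 (limma adjusted p = 0.00261). Plain averaging gave 3.57 on replicate 4 and a difference of 0.75 ± 0.18 (0.00142). Without that replicate plain averaging gave 0.49 (0.0277), and without all arrays that have over 1000 features without a value 0.42 (0.0636). It was the 1 member called higher at a time when 15 fell. Dtx1, a Notch target of marginal zone B cells, was called at no time.

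Against control ODN at 3 h, more members were called than against untreated at 3 h. With CpG 13 of 33 members were lower (11.5% of all genes) and 3 higher (9.23%), with a median member difference of -0.57. This comparison shares its CpG arrays with the 3 h comparison above, and control ODN and CpG arrays lie in different runs, so treatment and run cannot be told apart in it. The members that were higher were Pik3ap1 (1.46 ± 0.31, limma adjusted p = 0.000742), Bach2 (1.05 ± 0.28, 0.00717) and Swap70 (0.64 ± 0.15, 0.00198). Their control ODN arrays read -0.14, 1.20, -0.51 and 0.89 for Pik3ap1, 0.15, 0.24, -0.46 and -0.08 for Bach2 and 1.36, 1.23, 0.98 and 0.92 for Swap70. The groups overlapped for Pik3ap1 and not for the other 2 genes. The Bach2 value ran from 0.81 to 1.19 and lost its call without CpG 3 h replicate 4 (0.0536).

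Among the 13 that were lower, Cd180 had the largest difference (-1.21 ± 0.24, limma adjusted p = 0.000308; control arrays 3.54, 3.72, 3.49 and 3.11). It was followed by Cd79a (-1.16 ± 0.34, 0.0124; control arrays 7.21, 7.56, 6.78 and 5.55 against 6.15, 5.44, 5.65 and 5.22 with CpG) and Cd79b (-1.13 ± 0.16, 1.7e-06; control arrays 4.49, 3.92, 3.94 and 3.44). The Cd79a groups overlapped, whereas those of Cd180 and Cd79b did not. The others were Ralgps2 (-0.79 ± 0.17, 0.00065), Cd37 (-0.78 ± 0.19, 0.00325), Siglecg (-0.76 ± 0.19, 0.00427), Fcer2a (-0.75 ± 0.23, 0.0185), Plcg2 (-0.75 ± 0.21, 0.0107), Cr2 (-0.74 ± 0.19, 0.00522), Mef2c (-0.62 ± 0.16, 0.00597), Btk (-0.61 ± 0.21, 0.0362), Cd1d1 (-0.58 ± 0.20, 0.0292) and Pax5 (-0.54 ± 0.19, 0.0354). Btk is the tyrosine kinase below the receptor and Cd37 a tetraspanin of B cells. Their control arrays were 3.55, 3.00, 2.89 and 2.81 for Btk and 2.17, 1.97, 1.79 and 1.61 for Cd37, above the CpG arrays in each case (2.54, 2.25, 2.76 and 2.28, and 1.23, 1.00, 1.10 and 1.09). Of the 13, only Cd180, Cd79b and Ralgps2 were also called lower than untreated at 3 h. Cd79a averaged 5.62 with CpG, 5.64 untreated and 6.78 with control ODN. In the same order Cd37 averaged 1.10, 1.27 and 1.88, and Plcg2 1.87, 2.08 and 2.62. For Cd79a, Cd37 and Plcg2 the CpG mean thus lay nearer the untreated mean than the control ODN mean. Leaving out single arrays ended the calls of Cd79a (control replicates 1 or 2, -1.57 to -0.89), Fcer2a (control replicates 1 or 2 or CpG 3 h replicate 4, -0.88 to -0.59), Plcg2 (control replicates 1 or 3, -0.89 to -0.60), Btk (control replicates 1 or 2 or CpG replicates 1, 2 or 4, -0.71 to -0.44), Cd1d1 (control replicates 1 or 3 or CpG replicates 1 or 2, -0.74 to -0.45) and Pax5 (control or CpG replicates 1, 2 or 3, -0.60 to -0.51). The total of 16 calls became 10 without control ODN replicate 1. Under quantile normalization Cd79a was -0.80 (0.077), and with arrays scaled to the same spread -0.31 (0.641).

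Control ODN itself was set against untreated in the same fit. With it 2 members were higher, Cd79a (1.13 ± 0.31, limma adjusted p = 0.0368) and Cd37 (0.61 ± 0.18, 0.0431), where 2.45% of all genes were called higher, and 0 were lower, where 1.07% of all genes were. At limma's unadjusted p under 0.05 there were 8 of 33 members, beside 3461 of all 15084 genes tested, a similar share. The median member difference was 0.31. Other lists moved beside it, with 5 of 16 monocyte and macrophage genes higher (median 0.59), 3 of 15 neutrophil genes (0.62), 3 of 11 MHC class II genes (0.46) and 2 of 19 T cell genes (0.13), and 0 lower in each of these 4 lists. For Cd79a 3 of the 4 control arrays (7.21, 7.56 and 6.78) stood above all untreated arrays and 1 (5.55) inside their range. The 4 control ODN arrays had SDs over features of 1.073 to 1.205, beside 1.009 to 1.077 for untreated arrays, and with arrays scaled to the same spread the Cd79a difference was 0.43 (0.541) and 0 members were called. The Cd79a call was lost without untreated replicates 5 or 6 or control replicates 1, 2 or 3 (0.87 to 1.54, at most 0.166), and that of Cd37 without 8 of the 10 arrays in turn, control replicate 4 and untreated replicate 3 being the exceptions (0.52 to 0.70, at most 0.187). The count was 0 without untreated replicates 5 or 6 or control replicates 1, 2 or 3, 1 without untreated replicates 1, 2 or 4, and 8 without control replicate 4. Array spread moved with this comparison and with that of CpG against control ODN, where scaling left 8 calls, and its part in the result was not tested.

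Between consecutive CpG times, few members were called. CpG 9 h against 3 h gave 1 (1.44% of all genes called), 24 h against 9 h gave 3 (9.7%), 72 h against 24 h gave 6 (5.5%), 5 days against 72 h gave 1 (3.42%), 7 days against 5 days gave 2 (3.22%), 9 days against 7 days gave 2 (4.93%) and 14 days against 9 days gave 6 (9.68%). All 6 calls from 24 h to 72 h were falls (Blnk, Pax5, Fcrl1, Ralgps2, Cd79b and Mef2c), and all 6 from 9 to 14 days were rises (Siglecg, Cd79b, Bcl6, Ms4a1, Mef2c and Ralgps2). Of the falls, those of Blnk, Pax5 and Cd79b were kept in every single omission, while Ralgps2 lost its call without CpG 24 h replicate 1, Mef2c without CpG 24 h replicates 1 or 3 or CpG 72 h replicates 2 or 4, and Fcrl1 without CpG 24 h replicates 1, 2 or 3 or CpG 72 h replicates 2 or 4. The count from 24 h to 72 h was 3 without CpG 24 h replicate 1. Of all 21 calls between consecutive times, 13 were lost in 1 or more single omissions, so the smaller counts rest on single arrays. That from 3 to 9 h became 0 without CpG 3 h replicates 2, 3 or 4 or CpG 9 h replicate 3. That from 9 to 24 h became 1 without CpG 9 h replicate 1 or CpG 24 h replicate 3, and 5 without CpG 9 h replicate 2 or CpG 24 h replicate 4. That from 5 to 7 days fell to 0 or 1 in 6 omissions (CpG 7 days replicates 2, 3 and 4 and CpG 5 days replicates 1, 2 and 4), and that from 7 to 9 days in 7 (CpG 7 days replicates 1 to 4 and CpG 9 days replicates 1, 2 and 4). Siglecg went from 1.02, 0.88, 0.29 and 0.99 at 9 days to 1.88, 2.26, 1.82 and 1.68 at 14 days (1.12 ± 0.19, limma adjusted p = 0.000866). Ms4a1, called at no time against untreated, rose by 0.93 ± 0.25 (0.0174) over that interval, and the call was lost without CpG 9 days replicate 3 or CpG 14 days replicates 2 or 4 (0.81 to 1.11, at most 0.0743). Ralgps2 lost its 14 day call without CpG 14 days replicate 2 or CpG 9 days replicate 3 (0.46 to 0.75, at most 0.1).

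The 72 h, 7 day and 14 day groups and the control ODN arrays lie in 1 run, which allows comparisons inside it. Against 14 days, 13 of 33 members were lower at 72 h (13.6% of all genes, a share the members exceeded at 39.4%) with a median difference of -0.55, and 19 were lower at 7 days (10.8% of all genes) with a median of -0.70. Cd79b was lower by -0.77 ± 0.16 at 72 h (limma adjusted p = 0.000522) and -1.12 ± 0.16 at 7 days (1.89e-05), Mef2c by -1.02 ± 0.16 (2.16e-05) and -1.06 ± 0.16 (3.59e-05), and Siglecg by -1.13 ± 0.19 (5.33e-05) and -0.79 ± 0.19 (0.00345). The 3 Mef2c features shared this direction but not its size. At 72 h, 7 days and 14 days 1 feature averaged 1.498, 1.95 and 3.348. The others averaged 1.455, 1.108 and 1.932, and 1.708, 1.475 and 2.445. Ms4a1 was lower than at 14 days at both times (-1.03 ± 0.25, 0.00245, and -1.10 ± 0.25, 0.00203), with no overlap of the groups. Members called at 7 days and not at 72 h were Spib, Cd72, Fcrla, Fcrl1, Btla, Bank1, Cd180 and Cd1d1, and those called at 72 h and not at 7 days were Blnk and Cr2. The Cr2 difference (-0.74 ± 0.19, 0.00392) turned to 0.18 (0.529) on the feature with fewest missing values and to 0.06 (0.907) with arrays scaled to the same spread, so its direction depends on the feature and the scaling. Whether the 2 times differ in these genes is the comparison of 7 days with 72 h. Between 7 days and 72 h limma called 0 members (3.66% of all genes). There 9 of 33 members had an unadjusted p under 0.05, beside 2851 of all 15092 genes tested. Called members numbered 8 with array weights, 6 with arrays scaled to the same spread, 1 after quantile normalization and 2 without CpG 72 h replicate 4. Single omissions ended the 7 day calls of Spib and Fcrla (CpG 14 days replicate 4), Btla (CpG 7 days replicate 4 or CpG 14 days replicate 2), Bank1 (CpG 7 days replicates 1 or 2 or CpG 14 days replicates 2, 3 or 4), Cd180 (CpG 7 days replicates 1 or 2 or CpG 14 days replicates 2 or 4) and Cd1d1 (CpG 7 days replicates 1, 2 or 4 or CpG 14 days replicates 2 or 4), and the 72 h call of Blnk (CpG 72 h replicates 1 or 2 or CpG 14 days replicate 2). Among members called at both times, the 7 day calls of Cd37 (4 of 5 single omissions) and Fcer2a (2 of 8) were also lost. So were the 72 h calls of Plcg2 (5 of 8), Fcer2a (4 of 8) and Pou2af1 (1 of 8). Without CpG 72 h replicate 3 and CpG 14 days replicates 2 and 4, which have over 1000 features without a value, the counts against 14 days were 5 at 72 h and 4 at 7 days.

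**Figure D4:**
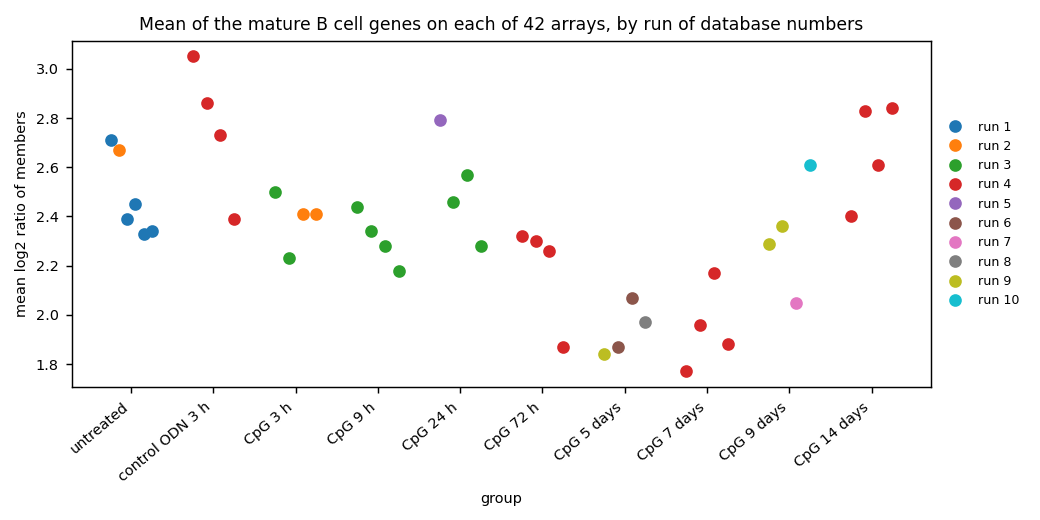
Each point is the mean log2 ratio of the members on 1 of the 42 arrays, by group, coloured by run of database numbers. The 7 day arrays (1.77 to 2.17) and the 14 day arrays (2.40 to 2.84) lie in the same run and do not overlap, and untreated arrays (2.33 to 2.71) lie in other runs.

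At the early times the only untreated array that shares a run with CpG arrays is replicate 2, beside CpG 3 h replicates 3 and 4. There Ralgps2 read 1.45 untreated and 0.47 and 0.44 with CpG, Cd79b 3.86 against 3.00 and 3.18, and Pik3ap1 0.71 against 2.12 and 0.98. Cd180 read 2.97 against 2.27 and 2.28, and Swap70 1.18 against 1.83 and 1.74. Each of these 5 genes, which were chosen because they were called at 3 h, differed in the direction of the whole groups. Their direction here is no independent check, since these arrays belong to those groups and only 1 of them, replicate 2, is untreated. With run as a fixed block, which rests on that array, 1 of the 6 calls at 3 h remained (Ralgps2, -0.99, limma adjusted p = 0.0282), 0 of 6 at 9 h, and 1 of 2 at 24 h (Fcer2a, -1.72, 0.0313). Under the block Cd79b was -0.76 (0.143), Pik3ap1 0.84 (0.59) and Swap70 0.61 (0.207) at 3 h. Against untreated at 72 h, 5, 7, 9 and 14 days no such fit exists, so time and run cannot be told apart there.

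Further genes of the same cells, which are not members, were followed as lists. The counts of these lists and of those below stand beside the shares of all genes tested. Called lower were 3.93% at 3 h, 3.45% at 9 h, 6.01% at 72 h, 13.4% at 5 days, 6.89% at 7 days and 5.12% at 9 days. Called higher were 7.7%, 5.07%, 8.94%, 17.5%, 8.68% and 8.4% in the same order. Of 20 measured genes of B cell receptor signalling, 9 fell and 1 rose at 5 days (median -0.42) and 9 fell and 0 rose at 7 days (median -0.40). The phosphatase gene Ptprc (-1.05 ± 0.14, limma adjusted p = 6.88e-07), the kinase gene Prkcb (-1.0 ± 0.19, 0.000105) and the paracaspase gene Malt1 (-0.89 ± 0.15, 2.74e-05) fell at 5 days. Of 15 genes for B cell survival, homing and migration, 8 rose and 1 fell at 3 h (median 0.75), with the activation markers Cd69 (2.95 ± 0.22, 1.53e-13) and Cd83 (1.62 ± 0.36, 0.00121), the homing receptor gene Ccr7 (1.15 ± 0.28, 0.00353) and the costimulatory receptor gene Cd40 (0.96 ± 0.17, 9.05e-05). At 7 days 7 of these 15 fell and 1 rose (median -0.62), Ccr7 (-1.32 ± 0.28, 0.0011), the BAFF receptor gene Tnfrsf13c (-1.30 ± 0.33, 0.00578) and the egress receptor gene S1pr1 (-0.95 ± 0.23, 0.00408) among them, while the integrin gene Itga4 rose (0.92 ± 0.17, 0.000361). Many of these genes are used by T cells and myeloid cells as well.

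Of 14 measured marginal zone B cell genes, 3 of them members (Cd1d1, Cr2 and Dtx1), 4 of the 13 tested fell and 0 rose at 5 days (median -0.26) and 2 fell and 0 rose at 7 days (-0.23). Of 11 germinal centre genes, 2 of them members (Bcl6 and Pou2af1), 2 rose and 2 fell at 5 days (median -0.15). At 3 h 2 of these 11 rose, the death receptor gene Fas (1.84 ± 0.19, limma adjusted p = 1.73e-09) and the repair gene Apex1 (0.95 ± 0.16, 2.07e-05). Of 11 genes of MHC class II presentation, which B cells share with other presenting cells, 1 fell and 1 rose at 5 days (median -0.03) and 1 fell at 7 days (-0.28). The gene that fell was H2-Ob both times (-1.28 ± 0.31, 0.00182, and -1.32 ± 0.28, 0.00122), a class II modifier found mainly in B cells, and it also fell at 9 h, 72 h and 9 days. Of 11 plasma cell genes, 4 fell and 1 rose at 5 days (median -0.34) and 3 fell and 1 rose at 7 days (-0.27), and Prdm1, which drives the plasma cell programme, rose at 3 h (0.73 ± 0.19, 0.00694). Of 7 B cell precursor genes 2 fell at 5 days (Lef1 and Ebf1) and 3 at 7 days, and Lef1 is also a T cell gene.

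Markers of other cells moved beside the trough. Of 19 T cell genes, 13 fell and 1 rose at 5 days (median -0.75) and 8 fell and 0 rose at 7 days (-0.52). The mean of the T cell list ran from 1.40 to 1.83 over untreated arrays, 0.68 to 1.04 at 5 days and 1.00 to 1.09 at 7 days, where the mean of the members ran from 2.33 to 2.71, 1.84 to 2.07 and 1.77 to 2.17. Of 18 mitotic genes 17 rose at 5 days (median 1.28) and 18 at 7 days (1.39), with list means from -0.58 to 0.05 untreated, 0.73 to 1.10 at 5 days and 0.86 to 1.05 at 7 days. Of 15 neutrophil genes 7 rose and 1 fell at 5 days (median 0.88) and 9 rose and 2 fell at 7 days (1.18), with list means of 1.48 to 2.28 untreated and 2.79 to 3.21 and 2.76 to 3.16 at those times. Of 10 erythroid genes 4 rose and 1 fell at 5 days (median 0.11) and 3 rose and 1 fell at 7 days (0.28), with list means of 3.35 to 3.70 untreated, 3.38 to 3.87 and 3.61 to 3.98. Their part in the lower member values was not tested. At 9 days the neutrophil list stood at its highest median (2.80, 12 of 15 genes higher), while the member median was -0.20.

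At 72 h, when 7 members fell, 10 of 19 T cell genes fell (median -0.57, list means 1.00 to 1.22), while 14 of 18 mitotic genes (0.89), 5 of 11 NK and cytotoxic genes (0.81), 5 of 16 monocyte and macrophage genes (0.60) and 4 of 10 erythroid genes (0.43) rose with 0 lower in each of those 4 lists. Of 15 neutrophil genes 6 rose and 1 fell (median 0.78). Their part in the member values at 72 h was not tested. At 3 and 9 h there were calls among NK and cytotoxic genes (2 of 11 higher at each time, medians -0.03 and 0.15), monocyte and macrophage genes (3 and 5 of 16 higher, 0 and 3 lower, medians 0.19 and 0.51) and dendritic cell genes (2 of 11 and 3 of 10 higher, 3 and 1 lower, medians 0.01 and -0.06). T cell genes had 1 and 6 of 19 lower (1 and 0 higher, medians -0.24 and -0.46), and neutrophil genes 5 of 15 higher at each time (0.23 and 0.67). At 5 and 7 days the NK list had 1 higher and 2 lower, and 0 higher and 3 lower (medians -0.03 and -0.38). The monocyte list had 4 and 3 higher (0.09 and 0.26), the dendritic list 3 higher and 1 lower, and 1 higher (-0.11 and -0.21), and the stroma list 1 lower and none called (-0.20 and -0.22). Several of these small counts lie near the shares of all genes called (13.4% lower and 17.5% higher at 5 days). They are not read as a change of those cells. Of 9 pancreas acinar genes 0 were called at any of the 8 times, with list means from 0.39 to 5.36 over untreated arrays alone.

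**Figure D5:**
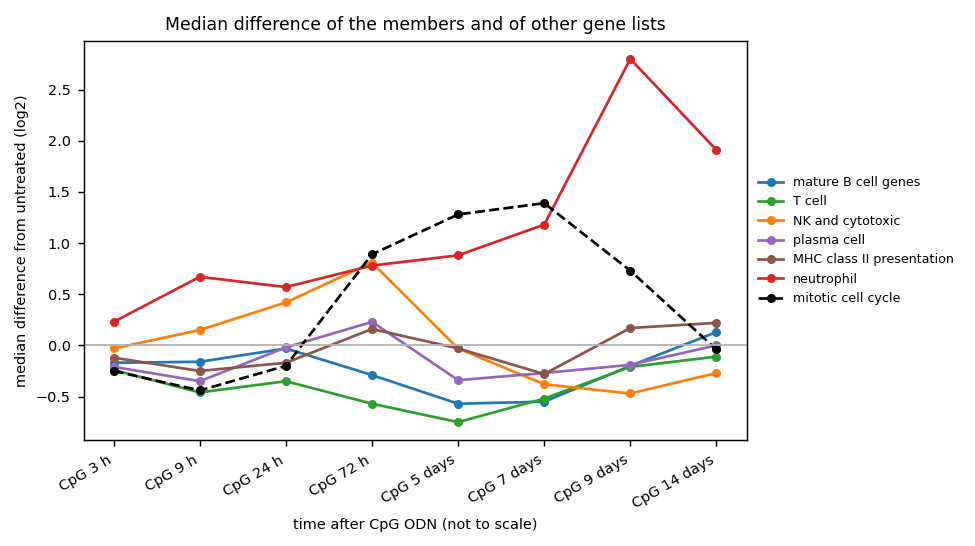
Lines give the median difference from untreated (log2) of the 33 members and of 6 other gene lists at the 8 CpG times, which are spaced evenly and not to scale. The members and the T cell list are lowest at 5 days (-0.57 and -0.75), the mitotic list is highest at 7 days (1.39) and the neutrophil list at 9 days (2.80).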

How the data were processed

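RNA of mouse spleen was measured on 42 arrays of 2 colours. The deposited values are log2 ratios of spleen over reference made by the authors, whose normalization and spot filter no source used here states. The lowest value was -6.859 and the highest 9.784, from which base 2 was taken, and the direction was taken from spleen genes being high in untreated spleens. Another base would multiply all differences by a constant and leave the tests as they are.

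Of 30601 features, 23485 had 1 gene symbol, 179 several and 6937 none, and those with 1 symbol were averaged per gene. Arrays lacked a value for 173 to 1740 features. The number of arrays limits the precision, and signal over background was not used. The 861 pairs of arrays had correlations of 0.746 to 0.978, and none held the same values.

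Groups were compared with limma 3.58.1 (R 4.3.3) in 1 fit of 42 arrays. A gene needed a value on at least 3 arrays of each group compared. Cd37 lacked 1 array at 14 days and Bcl6 1 at 7 days. On simulated data for CpG 3 h against untreated (12588 genes, 200 changed) the fit recovered 31.3%, 82.1% and 98.5% of changes of 0.5, 1 and 2, with 9 false among 150 calls. The simulation used independent normal noise, genes with a value on every array and no run effect. Its rates therefore check the fit and need not hold for these data. Runs are database numbers at most 12 apart. The members and lists were chosen with earlier results of these data known. Per-array values were given for members called at 2 or more CpG times against untreated, called in CpG against control ODN, largest at a time in either direction, or fixed beforehand (Cd79a, Cd79b, Ms4a1, Pax5, Bcl6, Cr2), and 4 called genes at most per further list. Fcmr was added after its values were seen. Alternatives covered the feature kept per gene, centring, scaling, prior, array weights, arrays fitted, threshold, run, replicate number and single arrays left out.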

Additional observations from a re-analysis of the deposited data

Results flagged for a closer look

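In 328 groups of 4 to 6 values, 19 (5.79%) had 1 array standing apart from the rest of its group by Dixon's ratio, where chance gives about 1 in 20, so the number is near chance. The lone values were 3.72 for Cr2 and 2.27 for Fcrl1 at 72 h (replicates 3 and 4), 0.74 for Ralgps2 (replicate 1) and -0.50 for Bach2 (replicate 4) at 72 h. At 24 h they were 1.36 for Cd37 and -0.99 for Bach2 (replicate 2), 4.42 for Fcrla and 1.28 for Swap70 (replicate 1), 3.07 for Fcrl1 (replicate 4) and 0.55 for Bcl6 (replicate 3). At 5 days they were 0.51 for Ralgps2 (replicate 1) and 3.57 for Bcl11a (replicate 4), and at 7 days 2.40 for Spib (replicate 4). At 14 days they were 6.44 for Fcmr and 3.18 for Bcl11a, both on replicate 2. Both Bcl11a values come from plain averaging on an array that lacks the lowest of its 3 features. With features centred before averaging they were 2.41 and 2.01, and neither stood apart from its group. The others were 1.58 for Bcl6 at 3 h (replicate 2), 1.5 for Bach2 at 9 h (replicate 4), 1.65 for Mef2c at 9 days (replicate 3) and 1.40 for Btla with control ODN (replicate 4). No array held more than 2 of them.

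Of 231 tests between consecutive CpG times (33 members, 7 comparisons), 21 passed limma's adjusted p of 0.05. From 3 to 9 h Swap70 fell by 0.62 (adjusted p = 0.024). From 9 to 24 h Blnk rose by 0.60 (0.0318), Btk by 0.79 (0.015) and Cd1d1 by 1.11 (0.000293). From 24 to 72 h the differences were -0.93 for Blnk (0.00111), -0.66 for Cd79b (0.00974), -0.71 for Fcrl1 (0.0379), -0.55 for Mef2c (0.0369), -0.82 for Pax5 (0.00482) and -0.68 for Ralgps2 (0.00968). Bcl11a was higher by 0.81 at 5 days than at 72 h (0.016) and lower by -0.84 at 7 days (0.0156) as averaged, which exceeds each of its features, and with features centred these were 0.52 (0.0182) and -0.54 (0.0155). Cr2 rose by 0.68 from 5 to 7 days (0.0427), a call lost in 7 of 8 single omissions. The mean of 1 Cr2 feature went from 3.179 to 4.441 and that of the other from 4.203 to 4.297. From 7 to 9 days Btla rose by 1.59 (0.0313) and Pou2af1 by 0.87 (0.0219). From 9 to 14 days the differences were 0.95 for Bcl6 (0.0112), 0.97 for Cd79b (0.000526), 0.68 for Mef2c (0.00853), 0.93 for Ms4a1 (0.0174), 0.62 for Ralgps2 (0.0167) and 1.12 for Siglecg (0.000866). The means of the Mef2c features went from 2.299 to 3.348, from 1.582 to 1.932 and from 1.813 to 2.445 over that interval. In single omissions 8 of the 21 kept their call throughout (Cd1d1 and Blnk, Cd79b and Pax5 at 72 h, Bcl6, Cd79b, Mef2c and Siglecg at 14 days). Both Bcl11a calls were lost without CpG 5 days replicate 4, whose 3.57 is listed above, as averaged plainly.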

How the results depend on the processing

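Of 124 called member differences over the 20 comparisons, 88 stayed called with arrays scaled to the same spread, 81 without arrays with over 1000 features without a value, 104 with the feature with fewest missing values, 114 after quantile normalization (56 new calls), 123 with array weights (59 new) and 124 with features centred, an alternative chosen after seeing the data, which moved 3 of these values by over 1.5 times, all of Bcl11a (0.75 to 0.46 at 5 days, 0.81 to 0.52 and -0.84 to -0.54 between times). Direction reversed for Cr2 at 72 h against 14 days, at 0.18 with the feature with fewest missing values and 0.06 with arrays scaled. The causes were not tested. Shares over all genes under these alternatives are not given, so the member counts here and below stand without that background.

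Counts of members called against untreated moved as follows. At 3 h there were 13 after quantile normalization, 12 with array weights and 1 with run as a fixed block, beside 6. At 9 h there were 3 at p below 0.01 and 0 with the run block, beside 6. At 24 h there was 1 with the feature with fewest missing values, at p below 0.01 or with the run block and 0 in a fit of those groups alone, beside 2. At 72 h there were 15 after quantile normalization and 12 with array weights, beside 7. At 7 days there were 6 at p below 0.01, beside 13. At 9 days there were 5 with the feature with fewest missing values or array weights, 14 after quantile normalization and 8 with arrays scaled, beside 3. At 14 days there were 1 with arrays scaled and 2 with array weights or the replicate block, beside 0. For control ODN there were 4 with the feature with fewest missing values or array weights, 1 with arrays centred or a trended prior, and 0 with the other settings that moved it (quantile, scaling, those groups alone, p below 0.01, replicate block, run as a random block, without arrays with over 1000 missing), beside 2. CpG against control ODN gave 8 with arrays scaled and 10 at p below 0.01, beside 16.

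Between times, 9 against 3 h (1 call) gave 2 with array weights and 0 with the feature with fewest missing values, those groups alone, p below 0.01 or the run block. 24 against 9 h (3) gave 1 with those groups alone or p below 0.01, and 72 against 24 h (6) gave 3 with scaling and 2 with those groups alone. 5 days against 72 h (1) gave 4 (quantile), 6 (scaling), 11 (weights) and 0 (those groups alone, p below 0.01, without arrays with over 1000 missing). 7 against 5 days (2) gave 0 (feature with fewest missing, p below 0.01, without those arrays), 4 (centred), 1 (trend, random run) and 5 (weights). 9 against 7 days (2) gave 1 (scaling), 6 (weights), 4 (those groups alone) and 0 (p below 0.01). 14 against 9 days (6) gave 11 (quantile), 3 (scaling, p below 0.01) and 2 (without those arrays). 72 h against 14 days (13) gave 8 (scaling) and 5 (without those arrays), 7 against 14 days (19) gave 10 (scaling, p below 0.01) and 4 (without those arrays), and 7 days against 72 h (0) gave 1 (quantile), 6 (scaling) and 8 (weights).

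Leaving out 1 array gave 5 to 7, 3 to 6, 0 to 5, 5 to 8, 14 to 17, 9 to 13, 2 to 4 and 0 to 3 calls at the 8 times in order, 0 to 8 for control ODN, 10 to 18 for CpG against control ODN, and 0 to 1, 1 to 5, 3 to 6, 1 to 1, 0 to 3, 0 to 3 and 4 to 7 between consecutive times. It gave 10 to 13 and 13 to 19 for 72 h and 7 days against 14 days, 0 to 2 for 7 days against 72 h, and 25 to 27 for the F test. Same-numbered replicates deviated together (every r over 0.1) in 0 of 20 comparisons (r from -0.22 to 0.46), and the main fit did not pair them. Because this rule asks for every pair to pass, it cannot exclude a link by number between some arrays. With the replicate block 116 of the 124 calls stayed and 14 were new, with 19 members called at 5 days and 15 at 7 days. With run as a fixed block 32 of 46 calls stayed, and comparisons across the sets of runs could not be fitted.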
